A study of Homo sapiens with 4 samples.

Results

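Hemidesmosomes anchor basal epithelial cells to the basement membrane, and 8 genes for their parts and for their laminin ligand were examined on the arrays. The genes were ITGA6, ITGB4, CD151, COL17A1, PLEC, DST, LAMA3 and LAMB3. Members were taken by gene, as every probe whose transcript accession on the array belongs to one of these genes in RefSeq. This gave 12 probes, all printed as 1 spot on each array, out of 20501 genes with a symbol.

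In a hemidesmosome, integrin α6β4 in the basal cell membrane binds laminin-332, a trimer with an α3 and a β3 chain that the epithelial cell secretes itself. Inside the cell, the long β4 tail is held by plectin, and plectin and the epithelial form of dystonin (BP230) tie the plaque to keratin filaments. Collagen XVII (BP180) spans the membrane beside the integrin, and the tetraspanin CD151 associates with laminin-binding integrins. Mammary basal cells carry hemidesmosomes, and cultures of MCF-10A, a non-tumorigenic human mammary epithelial line, lay down laminin-332.

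By the labels, the RNA came from MCF-10A cells. The cells were grown in MEBM with bovine pituitary extract, hydrocortisone, EGF, insulin and cholera toxin and given a stapled peptide at 10 µM. Stapled peptides are short helices locked in shape by a chemical link between side chains. The peptide was added 48 h after seeding. One group received the peptide named stapled-peptide for 24 h, one received it for 48 h, and the other two received non-specific stapled-peptide (unspecific in the protocol) for the same times. Each of these 4 groups is 1 single-colour Agilent array, so the spread within a group is not known and no test between groups was run. A model of peptide plus time would leave 1 residual degree of freedom and assume the same peptide difference at both times, and it was not fitted. No untreated cells were analysed here, and the array labels do not say which numbered peptide of the study each name stands for, although they mark the non-specific stapled-peptide as control. Differences are therefore given by label, on the log2 scale as non-specific stapled-peptide minus stapled-peptide.

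The 4 arrays shared 1 slide and scan. The 48 h array of non-specific stapled-peptide stood apart, with Pearson correlations of 0.813 to 0.819 to the other 3 arrays over 37761 probes, against 0.978 to 0.980 among those 3, called concordant from here on. It is called the last array, as values are given in the order stapled-peptide at 24 h, non-specific stapled-peptide at 24 h, stapled-peptide at 48 h, non-specific stapled-peptide at 48 h. Correlations over probes are a description of whole arrays. The comparisons at 24 h and over time with stapled-peptide take no signal from that array, although all 4 arrays entered the normalization. The values of the 8 genes in those comparisons are given as well. As the yardstick for a single value, the peptides at 24 h differed with an SD of 0.32 (log2) over 28931 probes measured on both arrays, and the central 95% of probes lay between −0.64 and 0.59. The scanner software put the error of a bright signal at 10.0%, which is 0.20 on a log2 difference, and this covers the spot and not the spread between cultures.

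The labelled cell type was checked by its markers. All 10 basal mammary markers were well above background on the 3 concordant arrays, with a summed linear signal of 103400 to 108100, so the markers of the labelled cell type were present there. On the 48 h array of non-specific stapled-peptide their sum was 493, with KRT6A not well above background. Against stapled-peptide 10 of 10 were lower past 2-fold and 6 past 100-fold, with a median of −7.14. TP63, a basal transcription factor, differed by −1.01. Of 12 markers of neural and embryonic kidney lines, 2 or 3 were well above background on each concordant array, with a summed signal of 257 to 281. On the last array 9 were, with a sum of 72800, and 9 of 11 with a difference were higher past 2-fold. UCHL1 (14.25), LIN28B (12.86), NEFM (11.93) and BEX1 (11.10) were measured on that array alone. At 24 h, and over time with stapled-peptide, 0 of the basal and 0 of the neural and kidney markers passed 2-fold. It cannot be told from these values whether the array labelled non-specific stapled-peptide at 48 h holds RNA of MCF-10A cells, and each difference below that uses it is a difference from the array so labelled. The part of these markers in the low level of the 8 genes was not tested.

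The 10 widely expressed reference genes were all well above background on every array. Their summed signal was 451500 to 459300 on the concordant arrays and 291300 on the last, and at 48 h 3 were lower and 2 higher past 2-fold, with a median of −0.44. The last array was not dim as a whole, with 65.7% of its spots well above background against 62.5 to 64.6% on the others.

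The promoters of these genes are shown before their values, and any part of their motifs in the differences was not tested. RefSeq windows of 300 bases (GRCh38.p14) ran from 250 before to 50 after a transcript start. For 5 of the 8 members 10 windows were held in all, and none was held for ITGB4, PLEC or CD151. The windows were searched on both strands for the AP-1 motif TGANTCA, which reads the same on either strand, for the SP1 motif GGGCGG and for the E-box CACCTG. AP-1 is the Fos and Jun factor and SP1 is a widely expressed activator of GC-rich promoters. The 3 windows with an AP-1 motif are printed 5′ to 3′ with that motif in capitals, and the COL17A1 window, which has none of the motifs, is printed for contrast.
LAMA3, chr18:23872770-23873069, plus strand: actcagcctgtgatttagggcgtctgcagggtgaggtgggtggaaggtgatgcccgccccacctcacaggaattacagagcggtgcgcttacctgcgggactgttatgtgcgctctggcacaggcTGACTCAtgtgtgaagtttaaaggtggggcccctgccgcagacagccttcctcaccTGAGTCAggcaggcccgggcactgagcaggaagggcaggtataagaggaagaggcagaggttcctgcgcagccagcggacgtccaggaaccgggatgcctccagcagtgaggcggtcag
LAMB3, chr1:209651325-209651624, minus strand: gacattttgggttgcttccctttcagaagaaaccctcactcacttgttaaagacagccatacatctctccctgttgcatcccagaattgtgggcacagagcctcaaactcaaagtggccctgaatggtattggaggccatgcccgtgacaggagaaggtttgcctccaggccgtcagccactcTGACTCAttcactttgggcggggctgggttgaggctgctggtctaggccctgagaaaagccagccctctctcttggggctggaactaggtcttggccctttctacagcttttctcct
DST, chr6:56954781-56955080, minus strand: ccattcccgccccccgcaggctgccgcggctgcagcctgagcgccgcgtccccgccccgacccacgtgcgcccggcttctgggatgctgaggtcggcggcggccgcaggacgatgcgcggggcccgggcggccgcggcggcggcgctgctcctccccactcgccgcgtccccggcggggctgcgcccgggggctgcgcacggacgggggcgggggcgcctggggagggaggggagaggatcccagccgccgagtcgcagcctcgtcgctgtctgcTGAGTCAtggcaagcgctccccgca
COL17A1, chr10:104085831-104086130, minus strand: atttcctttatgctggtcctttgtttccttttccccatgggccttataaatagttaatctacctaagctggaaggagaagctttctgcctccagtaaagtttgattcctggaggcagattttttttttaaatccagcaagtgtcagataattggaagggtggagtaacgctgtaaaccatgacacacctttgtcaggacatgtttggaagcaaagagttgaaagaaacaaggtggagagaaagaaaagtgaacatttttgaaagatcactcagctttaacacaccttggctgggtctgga

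The LAMA3 window held 2 AP-1 motifs, beginning at −125 and −69 relative to the start, and an E-box at −73 that overlaps the second by its last letters. In LAMB3, 1 of 3 windows held the motif, at −67 relative to the most downstream start, and in DST 1 of 3 windows held it, at 25 relative to the most upstream start. It was in neither window of ITGA6. Of 35116 windows of this length in the table, 7.71% held an AP-1 motif, 44.95% an SP1 motif and 20.59% an E-box, against 3, 7 and 3 of the members' 10 windows, of which several overlap. A match is only a run of letters, and the array does not say which start was used.

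At 48 h, all 8 genes were lower with non-specific stapled-peptide. Each is taken at its probe with the highest mean signal, and all 8 were lower by more than 2-fold, where 19.8% of the 17112 genes with a difference were. The median difference was −2.96, against 0.03 over all named genes. Past 100-fold, the limit the study used, were 2 of the 8, LAMB3 and ITGB4, where 0.707% of genes were lower by that much. Over probes, 12 of 12 were lower past 2-fold, against 18.4% of all probes. None of the 8 genes was higher past 2-fold, and 21.2% of all genes were. The study names ITGB4, LAMB3, COL17A1 and LAMA3 in a matrix pathway from its analysis of genes picked on these same arrays past 100-fold. In the values here LAMA3 was lower by 5.43-fold, short of that limit. COL17A1 was lower by at least 11.2-fold, a bound that does not reach the limit. The enriched terms of the study also include hemidesmosome assembly. The counts are therefore no independent evidence of a direction. Fewer cells that express a gene, less RNA per cell and RNA of other cells on the array with the low basal markers (summed signal 493) cannot be told apart.

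**Figure D1:**
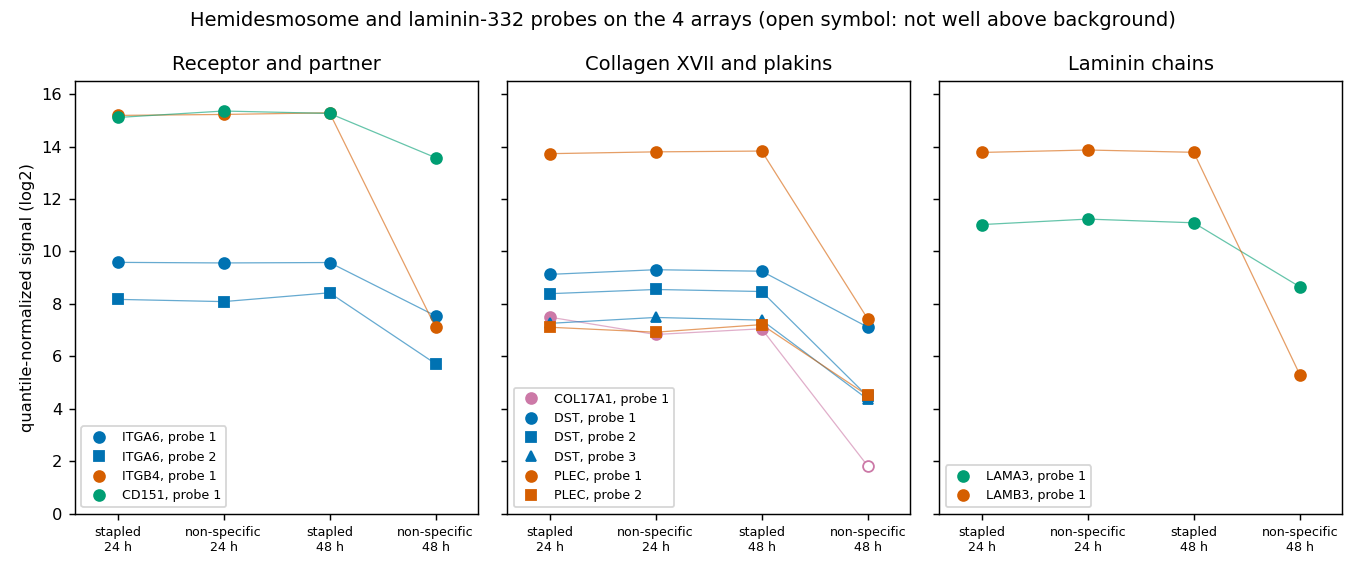
Quantile-normalized log2 signal (vertical axis) of the 12 probes on the 4 arrays (horizontal axis), in panels by role, with 1 symbol shape for each probe of a gene and open symbols where the spot was not well above background. Lines only join the values of a probe. On the first 3 arrays ITGB4 lies between 15.19 and 15.29 and LAMB3 between 13.78 and 13.87, and on the last they lie at 7.10 and 5.31.

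ITGB4, the β4 subunit found only in the laminin receptor α6β4, had a log2 signal of 15.19 for stapled-peptide and 15.23 for non-specific stapled-peptide at 24 h. At 48 h the signals were 15.29 for stapled-peptide and 7.10 for non-specific stapled-peptide. The first 3 values lay within 0.10 of each other, and the last was far below them. On the linear scale of the files, without normalization, the same spots read 40275, 39549, 36663 and 156. The difference at 48 h was −8.18 ± 0.21 (software error), or 291-fold lower, and 0.344% of the stapled-peptide signal was left.

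ITGA6, the α6 subunit, which pairs with β4 or with β1, was lower by less. Its brighter probe had 9.59, 9.56 and 9.58 on the 3 concordant arrays and 7.54 on the last, in the same order. That is a difference of −2.04 ± 0.21, or 4.10-fold. Its other probe, designed on the same transcript record, had 8.17, 8.09, 8.43 and 5.72, and differed by −2.71 ± 0.22. On both probes the last array alone lay below the rest.

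The 2 subunits of the receptor thus did not move by the same amount. At 48 h the ITGB4 difference minus the ITGA6 difference was −6.15 on the log2 scale, while at 24 h the pair's differences lay 0.06 apart and over time with stapled-peptide 0.11 apart. If single probes vary as they did at 24 h, the gap between 2 of them has an SD of 0.45. From the SD over all probes at 48 h it is 1.98. The 2 PLEC probes lay 3.70 apart at 48 h, the brighter lower by more, while in ITGA6 and DST the brightest probe was lower by less. ITGB4 and LAMB3 had brighter probes than ITGA6 and LAMA3 on the concordant arrays. The part of probe brightness in the gap between the subunits, and in that between LAMB3 and LAMA3 below, was not tested. ITGB1, the other partner of α6, differed by −3.87.

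CD151 had the smallest difference of the 8. Its log2 signals were 15.11, 15.36 and 15.26 on the concordant arrays, in the order above, and 13.58 on the last. The difference was −1.69 ± 0.20, or 3.22-fold, and 31.1% of the signal was left. This was still beyond its range of 0.25 over the other 3 arrays. Between the peptides at 48 h, however, the central 95% of probes measured on both arrays lay between −2.99 and 2.68. At their brightest probes CD151, ITGA6 (−2.04), DST (−2.13) and LAMA3 (−2.44) lay inside that range. LAMB3 (−8.47), ITGB4 (−8.18), PLEC (−6.40) and the bound of COL17A1 (−3.49) lay below it.

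COL17A1 had unnormalized signals of 184 for stapled-peptide and 114 for non-specific stapled-peptide at 24 h, and of 116 for stapled-peptide at 48 h. After normalization and on the log2 scale these were 7.50, 6.83 and 7.05. On the last array its spot was not well above background, at 1.82, so the difference of −3.49 is a bound. It was at least 11.2-fold lower, computed against the lowest signal well above background on that array, which was 3.57. Under the normexp background correction, which adds an offset of 50 to every signal, the difference was −1.48, so the size of the minimum depends on the background correction. Only COL17A1 of the 8 was below the background mark on any array.

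Genes of the plaque proteins were lower at every probe, by amounts that varied with the probe. PLEC, which encodes plectin, had 13.73, 13.80 and 13.83 on the concordant arrays and 7.43 on the last at its bright probe. The difference was −6.40 ± 0.21, or 84.3-fold. Its dim probe, on the same transcript record, had 7.11, 6.92, 7.21 and 4.51, a difference of −2.70 ± 0.26. The mean over both probes was −4.55.

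DST, which encodes dystonin, carried 3 probes. The brightest, on the record NM_015548, had 9.13, 9.30 and 9.25 on the concordant arrays and 7.12 on the last, a difference of −2.13 ± 0.21. Both probes on NM_001723, the record of the epithelial BP230 form, were lower by more. The first had 8.39, 8.55, 8.47 and 4.47, a difference of −4.00 ± 0.29. The second had 7.26, 7.48, 7.38 and 4.36, a difference of −3.02 ± 0.29. The 3 probes thus agreed in direction and spanned 4.38-fold to 16.0-fold, and the sequences of the probes were not used here, so the transcripts each one detects are not known beyond its record.

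The laminin chains split as the integrin subunits did. LAMB3, the β3 chain, had log2 signals of 13.78, 13.87 and 13.78 on the concordant arrays and 5.31 on the last. The first 3 values lay within 0.09 of each other, and the difference at 48 h was −8.47 ± 0.23, or 355-fold, the lowest of the 8. An unnormalized signal of 40.1 remained, against 12957 with stapled-peptide.

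LAMA3, the α3 chain, had 11.03, 11.24 and 11.09 on the concordant arrays and 8.65 on the last. It differed by −2.44 ± 0.20, or 5.43-fold, and 18.4% of the signal was left. Its probe was designed on NM_198129, the record of the long α3B form, and whether it also detects other forms of LAMA3 is not known. The LAMB3 difference minus the LAMA3 difference was −6.03, against −0.12 at 24 h.

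**Figure D2:**
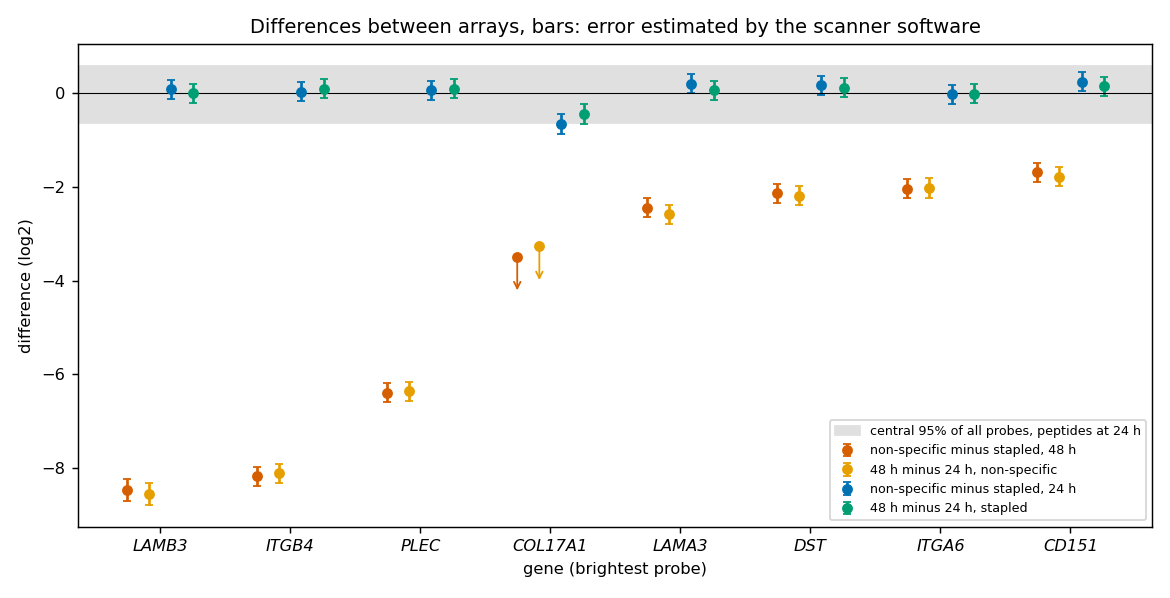
Log2 difference (vertical axis) of the 8 genes (horizontal axis, brightest probe) in the 4 comparisons, with bars for the error estimated by the scanner software, arrows for bounds and a grey band for the central 95% of all probes between the peptides at 24 h. The comparisons that use the 48 h array of non-specific stapled-peptide lie between −8.56 and −1.69, and the other comparisons lie between −0.66 and 0.25.

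Ordered by their difference at 48 h, the genes ran LAMB3 (−8.47), ITGB4 (−8.18), PLEC (−6.40), COL17A1 (−3.49, a bound), LAMA3 (−2.44), DST (−2.13), ITGA6 (−2.04) and CD151 (−1.69). LAMB3 and ITGB4 were 0.29 apart, which is within the SD of a gap taken from 24 h (0.45). The steps from LAMA3 to DST (0.31), from DST to ITGA6 (0.10) and from ITGA6 to CD151 (0.35) were within it as well. The steps from ITGB4 to PLEC (1.79) and from PLEC to COL17A1 (2.91) were beyond it, although COL17A1 may lie anywhere below its bound. Taken from the SD over all probes at 48 h instead (1.40, which holds the differences between these arrays as well), the SD of a gap was 1.98, and the step from ITGB4 to PLEC was within it. Both PLEC probes lay 3.70 apart at 48 h. With another of their probes, PLEC, DST and ITGA6 would stand elsewhere in this order.

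At 24 h, the same comparison gave 0 of 8 genes past 2-fold, where 1.04% of 16228 genes were lower and 0.838% higher. The differences ran from −0.66 to 0.25, with a median of 0.08 against 0.01 over all named genes. COL17A1 was at the low end, with −0.66 ± 0.21, just below the central 95% of probes measured on both arrays, and 4.04% of all probes with a difference, bounds included, lay lower. The largest positive values were 0.25 for CD151, 0.21 for LAMA3 and 0.18 for DST, which are about the size of the software error and inside the central 95% of probes. ITGB4 (0.04), LAMB3 (0.09), PLEC (0.07) and ITGA6 (−0.02) were nearer to 0.

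Between 24 h and 48 h with stapled-peptide, again 0 of 8 genes passed 2-fold, where 1.13% of 16138 genes were lower and 0.923% higher. The changes ran from −0.44 for COL17A1 to 0.15 for CD151, with ITGB4 at 0.10, PLEC at 0.10 and LAMB3 at 0.01. With quantile normalization 6 were above 0 and 2 below, and without normalization all 8 were below 0, where the median of all probes was itself −0.25. The signal of COL17A1 at 24 h with stapled-peptide was therefore higher than on both other concordant arrays, by 0.66 and 0.44.

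With non-specific stapled-peptide, the change from 24 h to 48 h was below −1 for 8 of 8 genes, or lower past 2-fold, where 20.1% of 17297 genes were lower and 21.3% higher, and 2 were lower past 100-fold, where 0.688% were. This comparison shares its 48 h array with the comparison between the peptides, so its values are not a second measurement of the low level. LAMB3 changed by −8.56, ITGB4 by −8.12, PLEC by −6.37, LAMA3 by −2.58, DST by −2.19, ITGA6 by −2.02 and CD151 by −1.78. COL17A1 was lower by at least 9.64-fold.

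**Figure D3:**
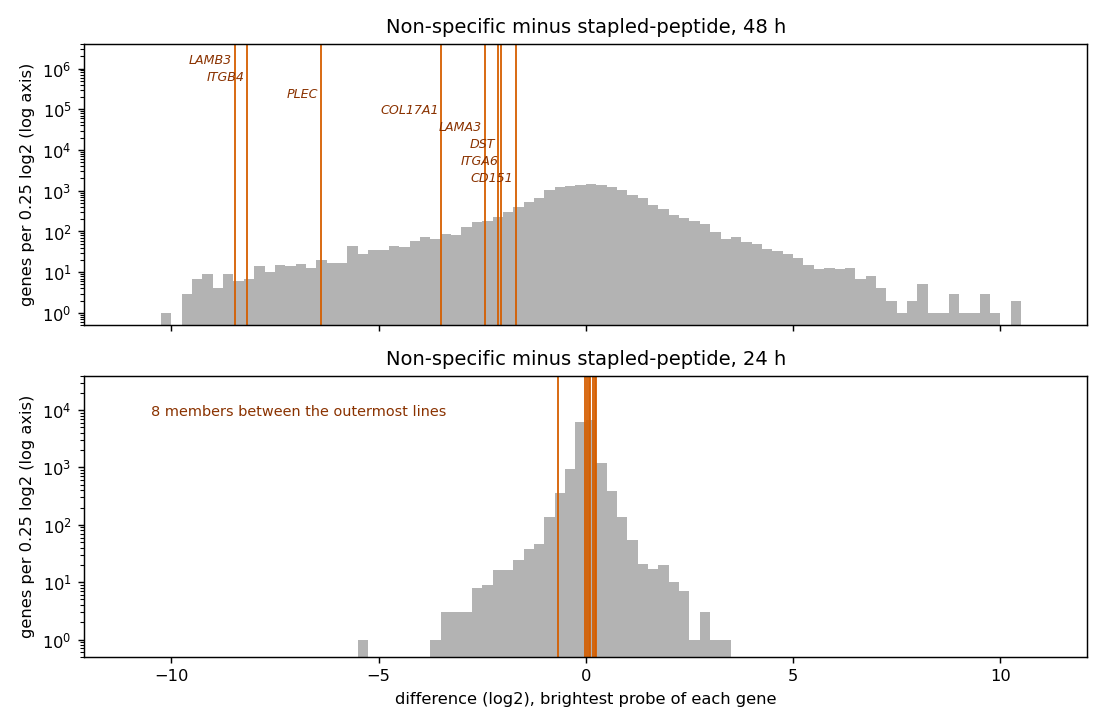
Number of genes (vertical, log axis) by log2 difference between the peptides (horizontal axis) at 48 h (top) and 24 h (bottom), with orange lines at the 8 genes. At 48 h the lines lie between −8.47 and −1.69, and at 24 h between −0.66 and 0.25.

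Other laminin chains were compared next. Of 9 genes, 7 were lower and 1 higher past 2-fold at 48 h, with a median of −1.52, and 0 passed 100-fold. For this list and those below, the shares over all genes at 48 h were 19.8% lower and 21.2% higher past 2-fold. Among the 7, LAMA2 (−1.17) and LAMC3 (−1.52) were bounds. LAMB4 was dim, at 5.33 with stapled-peptide and 4.26 on the last array, where the lowest signal well above background was 3.57. LAMA5 differed by −4.67, LAMB1 by −3.50, LAMC1 by −2.06 and LAMB2 by −1.98. LAMA1 was higher by 1.54, from 6.86 to 8.40. LAMA4 and LAMC3 depended on the probe. LAMA4 had −0.87 at its brightest probe and was higher by at least 5.05 at another, and LAMC3 was lower at its brightest probe but higher by at least 3.28 at another.

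Among 16 genes for neighbours of the hemidesmosome (anchoring fibrils, basement membrane, keratins, adaptors and processing enzymes), 11 were lower and 2 higher past 2-fold, with a median of −3.30. Past 100-fold, 2 were lower and 1 higher. The keratins that basal plaques bind had the lowest differences of this list, −9.58 for KRT5 and −7.20 for KRT14. ITGA3, the α3 subunit of the other laminin-332 receptor, differed by −6.31. COL7A1, the collagen of anchoring fibrils, differed by −3.33, FERMT1 (kindlin-1) by −4.16, and the laminin-processing proteases BMP1 and MMP14 by −3.67 and −3.76. HSPG2 (perlecan) had −3.28 at its brightest probe, and a weaker probe had −0.04.

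The sheddases of collagen XVII were not alike, with −2.74 for ADAM10, −1.40 for ADAM9 and −0.16 for ADAM17. ERBIN, an adaptor that binds BP230 and β4, differed by −0.14. The nidogens, which link laminin to collagen IV, were higher: NID2 by 3.27 and NID1 by at least 6.71, as NID1 was not well above background on any of the other 3 arrays.

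The other plakins, relatives of plectin and dystonin, had a median of −0.67 over 5 genes, with 2 lower and 1 higher past 2-fold. Past 100-fold, 1 was lower. DSP (desmoplakin), the plakin of desmosomes, differed by −0.10 and MACF1 by −0.67. PPL had a bound of −8.00, EVPL differed by −1.47 and EPPK1 was higher by at least 1.22. Of 8 other tetraspanins with a difference, 7 were lower past 2-fold, with a median of −1.73. CD82 differed by −4.79, CD9 by −1.63 and CD81 by −1.14, next to −1.69 for CD151.

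Focal adhesions also hold cells to the matrix but tie to actin. Of 11 core genes, 8 were lower and 0 higher past 2-fold, with a median of −1.45. They ran from −4.68 for TNS3 and −2.76 for PXN to 0.10 for FERMT2, whose other probe had −0.56, with TLN1 at −2.02 and VCL at −1.08. At 24 h, 0 genes of the laminin, neighbour, plakin and focal adhesion lists passed 2-fold, and neither did any over time with stapled-peptide. Among the tetraspanins, TSPAN8 was higher at 24 h by at least 1.41 and CD53 was higher over time with stapled-peptide by at least 1.44. Each of these was well above background on 1 of the 2 arrays compared.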

How the data were processed

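Total RNA, labelled as that of 4 MCF-10A cultures, was hybridized to single-colour (Cy3) Agilent human gene expression arrays, 1 for each peptide and time. The spot intensities were deposited by the authors as Agilent Feature Extraction output, with the background subtracted and no normalization between arrays. The labels name version 9.5 and the file headers version 10.7.1.1. The deposited marks of the software (well above background, outlier, control) were used as given.

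Control spots and outlier-marked spots were dropped, and no member spot carried that mark. Log2 signals were averaged over the spots of each probe, and quantile normalization was run over the arrays, as in the methods of the study, with signals held at 1 or more. Of 50599 probes, 50590 had a value on every array. RefSeq accessions (GRCh38.p14 annotation) named 28168 probes. A probe dim on 1 array of a pair entered at the lowest signal well above background on that array or its own, whichever was higher, and its difference is a bound. A bound with the opposite sign, or a probe dim on both arrays, gave no difference. The software's signal error was carried to log2.

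The members and gene lists were chosen with earlier results of these data known. One gene of the laminin list is not reported here and was left out of the list's counts. A gene is named if it is a member or in a list, and is represented by the brightest of its probes on average. The likest gene of each member had the smallest root mean square distance over the 4 arrays, after the mean of each gene was subtracted. The lists cover other laminin chains, neighbours of the hemidesmosome, other plakins, other tetraspanins, the focal adhesion core, reference genes, and basal, luminal, mesenchymal and neural or embryonic kidney markers. Python 3.11.15, numpy 2.4.6, pandas 2.3.3, matplotlib 3.10.9 and limma 3.58.1 in R 4.3.3 (normexp) were used, and the steps were tested on simulated data. Alternatives were no normalization, scaling to the 75th percentile, normexp, no bound, only probes above background on both arrays, outlier-marked spots kept, the mean over a gene's probes, the authors' combined table and, chosen after seeing the data, normalization over 3 arrays.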

Additional observations from a re-analysis of the deposited data

Results flagged for a closer look

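The change from 24 h to 48 h had opposite signs with the peptides for 6 of the 8 genes, above 0 with stapled-peptide and below 0 with non-specific stapled-peptide. With 1 array in each group these differences were not tested, and the changes with stapled-peptide were small, from 0.01 to 0.15. They lay below 0 for all 8 genes without normalization. The difference of these changes, non-specific stapled-peptide minus stapled-peptide, was −8.57 for LAMB3 and −8.22 for ITGB4. It was −6.47 for PLEC, −2.65 for LAMA3, −2.31 for DST and −1.93 for CD151.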

How the results depend on the processing

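All 8 genes stayed lower in the comparisons that use the 48 h array of non-specific stapled-peptide under the alternatives tried, except that COL17A1 has no value when both arrays of a pair must be well above background. The counts past 2-fold and 100-fold stayed within 1.5 times of those reported in each of the 4 comparisons. A value was taken as moved when it shifted by more than the SD of 0.32 between the peptides at 24 h. By this rule 19 gene values moved and 251 did not. Many of the 251 could hardly move, so the tally is no measure of robustness. The authors' combined table holds nearly the same intensities, and no member spot was outlier-marked. Genes with 1 probe keep their value under the mean over probes, and the settings for dim probes touch only COL17A1. All 19 belonged to the comparisons that use the 48 h array of non-specific stapled-peptide. Under normexp, 6 of the 8 genes moved between the peptides at 48 h. No value past 2-fold changed sign, but values near 0 did. Without normalization, 8 of 8 genes were below 0 over time with stapled-peptide, against 2 of 8 with it. The median over the genes between the peptides at 48 h, −2.96, was −2.01 under normexp, whose offset of 50 compresses dim signals, −3.84 without the bound and −2.44 with only probes above background on both arrays. The median between the times with non-specific stapled-peptide, −2.93, was −2.08, −3.80 and −2.58 under the same settings. COL17A1 at 48 h ran from −5.23 without the bound to −1.48 under normexp, LAMB3 from −8.67 to −7.00 and ITGB4 from −8.21 to −7.60. With the mean over their probes PLEC had −4.55 and DST −3.05. No pairing by replicate was possible because each group has 1 array and so the groups share fewer than 2 replicate numbers. Matching the peptides by time would leave 1 degree of freedom and was not run.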

Other observations

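The gene whose 4-array profile lay nearest to each member, among 14042 genes measured on every array, was MT1E for ITGB4 (root mean square distance 0.05 on the log2 scale after each gene's own mean was subtracted), CAVIN3 for LAMB3 (0.03), DUSP6 for PLEC (0.02), FAM83H for LAMA3 (0.01), SPRYD3 for ITGA6 (0.01), PLSCR1 for CD151 (0.01) and LOC93429 for DST (0.01). MT1E belongs to a family of closely similar metallothionein genes, and its value is uncertain for that reason. These distances rest on 4 arrays of which 3 are nearly alike, and COL17A1 was left out because it was not measured on every array.

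Among 10 luminal mammary markers, 3 of the 8 with a difference were lower and 2 higher past 2-fold at 48 h. KRT8 differed by −2.79, KRT18 by −2.34 and MUC1 by −5.23, while FOXA1 was higher by 1.31 and KIT by at least 3.44. The summed signal of the list was 33630 to 35400 on the concordant arrays and 6808 on the last. Among 10 mesenchymal and fibroblast markers, 5 of 8 were lower and 0 higher past 2-fold, with a summed signal of 33760 to 36170 on the concordant arrays and 1292 on the last. At 24 h, and over time with stapled-peptide, 0 genes of both lists passed 2-fold.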
